A study of Mus musculus with 24 samples.

Results

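The genes described here are 10 genes of the endoplasmic reticulum (ER) stress and amino acid responses: Ddit3, Atf4, Atf5, Asns, Trib3, Chac1, Hspa5, Sdf2l1, Herpud1 and Xbp1. They were taken by symbol from a deposited table of read counts for 24015 genes, in which all 10 had a row. The table comes from poly(A)-selected RNA sequencing of livers of female B6C3F1 mice, which were 5 to 6 weeks old at purchase and were acclimatised for at least 7 days. Furan animals received 8 mg/kg furan per day in corn oil by gavage for 21 days, control animals received corn oil alone, and sampling was 4 h after dosing ended. Every liver was split into a snap-frozen piece and a pair of pieces fixed in formalin and embedded in paraffin (FFPE), fixed for 18 h or for 3 weeks (3 wk). The libraries used were 3 furan (animals 41, 43 and 44) and 3 control (02, 04 and 06) from frozen pieces, and 4 furan (41 to 44) and 4 control (02, 03, 04 and 06) for each FFPE time. Every animal was a separate mouse, and the 3 kinds of piece came from the same livers, so a result seen in several kinds of piece is not a repeat in other animals.

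These genes belong to a linked pair of stress pathways. Phosphorylation of the initiation factor eIF2, by PERK when unfolded proteins build up in the ER or by GCN2 when amino acids run short, slows general translation and favours translation of Atf4 mRNA. The ATF4 protein then switches on genes for amino acid supply and, when the stress lasts, Ddit3, which encodes CHOP. The other ER branches, through IRE1 with XBP1 and through ATF6, raise ER chaperones and the machinery that degrades misfolded proteins. In liver, whose hepatocytes secrete most plasma proteins, these pathways have been studied in toxic injury and in feeding.

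Library totals ran from 33101755 to 58048387 counts in frozen pieces, from 16269854 to 22494012 in FFPE 18 h pieces and from 3666173 to 11780691 in FFPE 3 wk pieces. Levels are given in CPM, the count as a share of the library total after TMM scaling, which was done separately for each kind of piece, so levels were compared only within a kind of piece. Rn45s, a ribosomal RNA gene, took 7.76% to 16.5% of the counts in FFPE 18 h furan libraries, against 37.3% in control animal 06 and 6.42% to 7.22% in the other controls. With Rn45s left out of the fit, 4 of the 10 genes had an adjusted p below 0.05 in FFPE 18 h livers, against 5 with it kept (edgeR quasi-likelihood test). The part of Rn45s in the values of control animal 06 was not tested further, and values without animal 06 stand beside Atf5, Hspa5 and Sdf2l1. The 8 hepatocyte markers, all detected, summed to between 133506 and 142835 CPM in furan livers, against between 131012 and 136760 CPM in control livers, in frozen pieces. Summed markers of sinusoidal endothelial cells lay between 229 and 281 CPM in furan livers, against between 337 and 349 CPM in control livers, in frozen pieces. Their sum was also lower in every furan library than in every control library of the FFPE 18 h pieces (235 to 272 CPM in furan livers, 318 to 332 CPM in control livers). The same held for the sum in the FFPE 3 wk pieces (368 to 428 CPM in furan livers, 441 to 497 CPM in control livers), with none of the 7 markers at 0. There Kdr (34.1 CPM in furan livers, 26.6 CPM in control livers), Lyve1 (12.5 and 9.69) and Fcgr2b (72.7 and 64.9) averaged higher in furan livers. Stab2 (90.4 and 140), Clec4g, Pecam1 and Cdh5 averaged lower. None of the adjusted exact permutation p-values was below 0.05 (lowest 0.286 over 30 tests). Unadjusted, the endothelial values were already the smallest possible for 3 against 3 (0.1) and 4 against 4 libraries (0.0286). Failing 0.05 after adjustment therefore decides little. The part of these cell types in the results that follow was not tested, and in whole tissue fewer cells of a type and less RNA per cell cannot be told apart.

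Per kilobase of exon, the order of levels in control frozen livers ran from ER chaperone to asparagine synthetase. Hspa5 averaged 153 ± 32.6 CPM per kilobase and Herpud1 131 ± 31.2 CPM per kilobase (SD, n = 3), and their ranges overlapped. Atf5 at 76.2 ± 26.8 and Xbp1 at 69.5 ± 7.52 CPM per kilobase also overlapped each other, below Herpud1. Atf4 stood apart at 21.4 ± 1.42 CPM per kilobase. Sdf2l1 at 7.83 ± 2.45 and Trib3 at 4.95 ± 1.47 CPM per kilobase overlapped, while Ddit3 at 2.55 ± 0.297, Chac1 at 1.63 ± 0.353 and Asns at 0.189 ± 0.0955 CPM per kilobase each lay below all values of the gene before. These are levels, and the order was read from ranges with no test.

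In frozen livers Atf4 was higher and Trib3 and Chac1 were lower in furan animals, 3 of the 10 genes, while the ER chaperone and degradation genes among them did not pass the test. By edgeR's quasi-likelihood test with Benjamini-Hochberg adjustment over all tested genes, 15.7% of the 13794 genes tested passed an adjusted p of 0.05 (8.21% higher and 7.47% lower). In FFPE 18 h livers 5 of the 10 passed, with Atf4, Asns and Ddit3 higher and Trib3 and Chac1 lower, where 8.39% of 12832 genes passed (3.92% higher and 4.47% lower). Of these, Asns met the filter on low counts through its furan libraries alone. In FFPE 3 wk livers 0 of the 9 genes tested passed by edgeR, where 0.821% of 12064 genes did. Atf4 and Trib3 were the 2 with an unadjusted p below 0.05, where 10.9% of all tested genes had one. DESeq2 also called 0 there, but it gave an adjusted p for only 5512 genes, so its 0 need not cover all 9. In 1 model of all 6 groups, Atf4 was the 1 gene of the 10 that stayed called in frozen and in FFPE 18 h livers. Groups that did not overlap were common over all tested genes, at 37.2% in frozen pieces (18.6% with furan above control and 18.7% below), 15.8% in FFPE 18 h pieces (8.00% above and 7.82% below) and 8.75% in FFPE 3 wk pieces (4.60% above and 4.15% below), and the separations named next stand beside these shares.

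**Figure D1:**
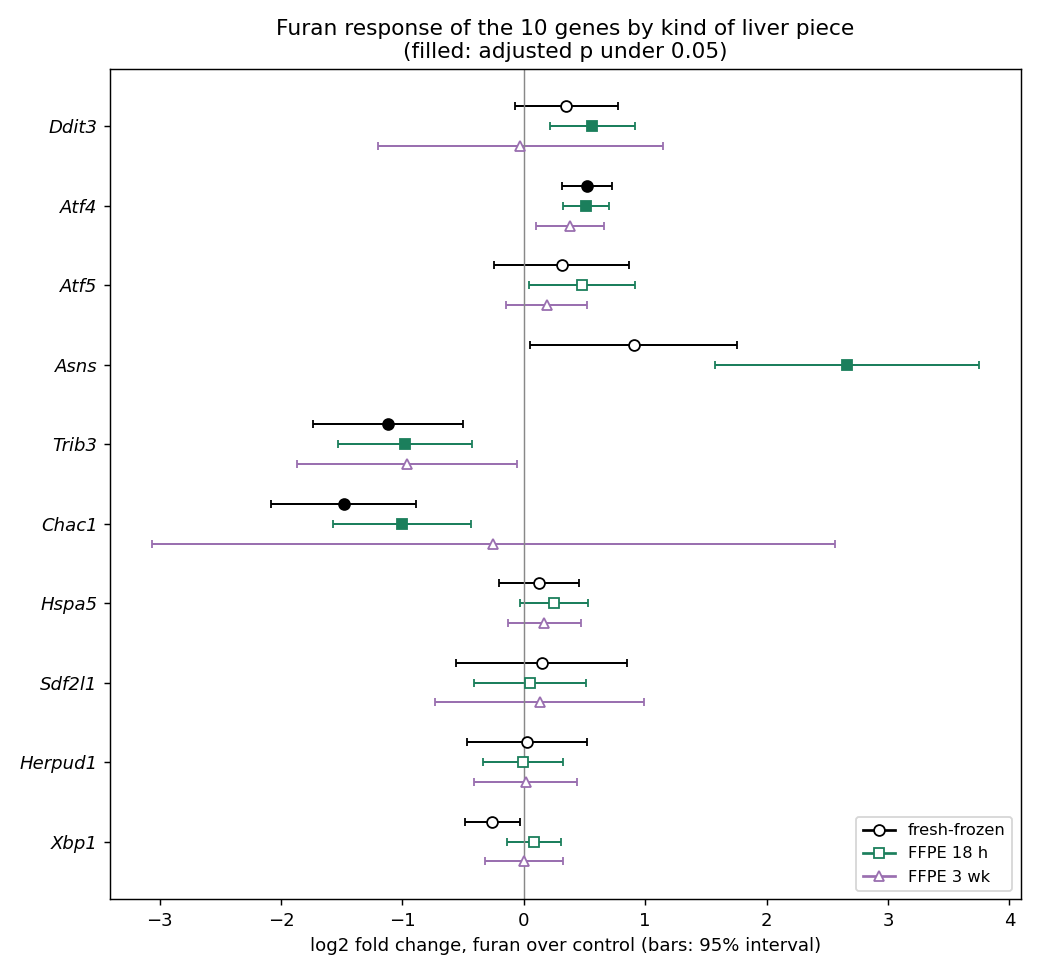
Log2 fold change, furan over control (horizontal axis), of the 10 genes in frozen, FFPE 18 h and FFPE 3 wk pieces, with 95% intervals from edgeR's quasi-likelihood fit and filled symbols where the adjusted p was below 0.05. Atf4 lay right of 0 in all 3 kinds of piece and Trib3 left of 0, Hspa5, Sdf2l1 and Herpud1 straddled 0, and Asns has no fitted value in FFPE 3 wk pieces because it fell under the filter on low counts there.

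Atf4 encodes the transcription factor at the centre of the response. In frozen livers it had 73.0, 64.8 and 78.6 CPM in furan animals 41, 43 and 44, against 48.9, 54.2 and 48.0 CPM in control animals 02, 04 and 06. Every furan library lay above every control library, and the log2 fold change was 0.52 ± 0.09 (SE; adjusted p = 0.00981, edgeR quasi-likelihood test). In FFPE 18 h livers it had 182, 178, 169 and 185 CPM in furan animals 41 to 44, against 130, 115, 144 and 113 CPM in control animals 02, 03, 04 and 06. The groups again did not overlap, with a log2 fold change of 0.51 ± 0.09 (SE; adjusted p = 0.00341, edgeR). After fixation for 3 wk, it had 255, 285, 244 and 269 CPM in furan animals, against 239, 180, 198 and 193 CPM in control animals, so that the lowest furan library stood just above the highest control library. There the log2 fold change of 0.38 ± 0.13 (SE) had an unadjusted p of 0.0118 and an adjusted p of 0.253 by edgeR's quasi-likelihood test. Atf4 stayed past the threshold in all 14 alternative settings tried for frozen and all 17 for FFPE 18 h pieces.

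Ddit3 encodes CHOP, a transcription factor linked to cell death under lasting ER stress. In the frozen livers it had 7.11, 4.50 and 4.92 CPM in furan animals, against 4.94, 4.19 and 3.96 CPM in control animals. Furan animal 41 was high and the other furan libraries overlapped the controls, with a log2 fold change of 0.35 ± 0.19 (SE; adjusted p = 0.238, edgeR) and a 95% interval from -0.08 to 0.78. In the FFPE 18 h livers it had 15.8, 9.87, 15.7 and 15.6 CPM in furan animals 41 to 44, against 9.59, 8.37, 9.98 and 10.9 CPM in control animals. Animals 41, 43 and 44 lay above all controls and animal 42 among them. The log2 fold change of 0.56 ± 0.16 (SE) passed with an adjusted p of 0.0498, which was above 0.05 when any of control animals 02, 03 and 04 or furan animals 41, 43 and 44 was left out (0.0942 to 0.136, edgeR). With the other settings counted, the call was lost in 10 of 17 alternatives. After fixation for 3 wk, Ddit3 ranged from 6.01 to 16.2 CPM in furan animals, against 4.57 to 26.8 CPM in control animals, with a log2 fold change of -0.03 ± 0.55 (SE; adjusted p = 0.997, edgeR). Of the stretches of 50 bases in Ddit3 exons, 1.11% also occur in Mars.

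Atf5 encodes a relative of ATF4 that is likewise translated under stress and is abundant in liver. In the frozen livers it had 206, 161 and 197 CPM in furan animals, against 194, 170 and 91.8 CPM in control animals, and the groups overlapped (log2 fold change 0.31 ± 0.24, SE; adjusted p = 0.422, edgeR). In the FFPE 18 h livers it had 407, 324, 322 and 401 CPM in furan animals, against 338, 299, 267 and 138 CPM in control animals (0.48 ± 0.20, SE; adjusted p = 0.170, edgeR). Control animal 06 was the lowest in both. Without it the log2 fold change was 0.05 in frozen and 0.27 in FFPE 18 h pieces. After fixation for 3 wk, Atf5 ranged from 445 to 523 CPM in furan animals, against 277 to 487 CPM in control animals, with animal 06 again lowest. In the GENCODE annotation 82 exon bases of Atf5 overlap Il4i1 and Nup62 on the other strand, which an unstranded library cannot tell apart.

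**Figure D2:**
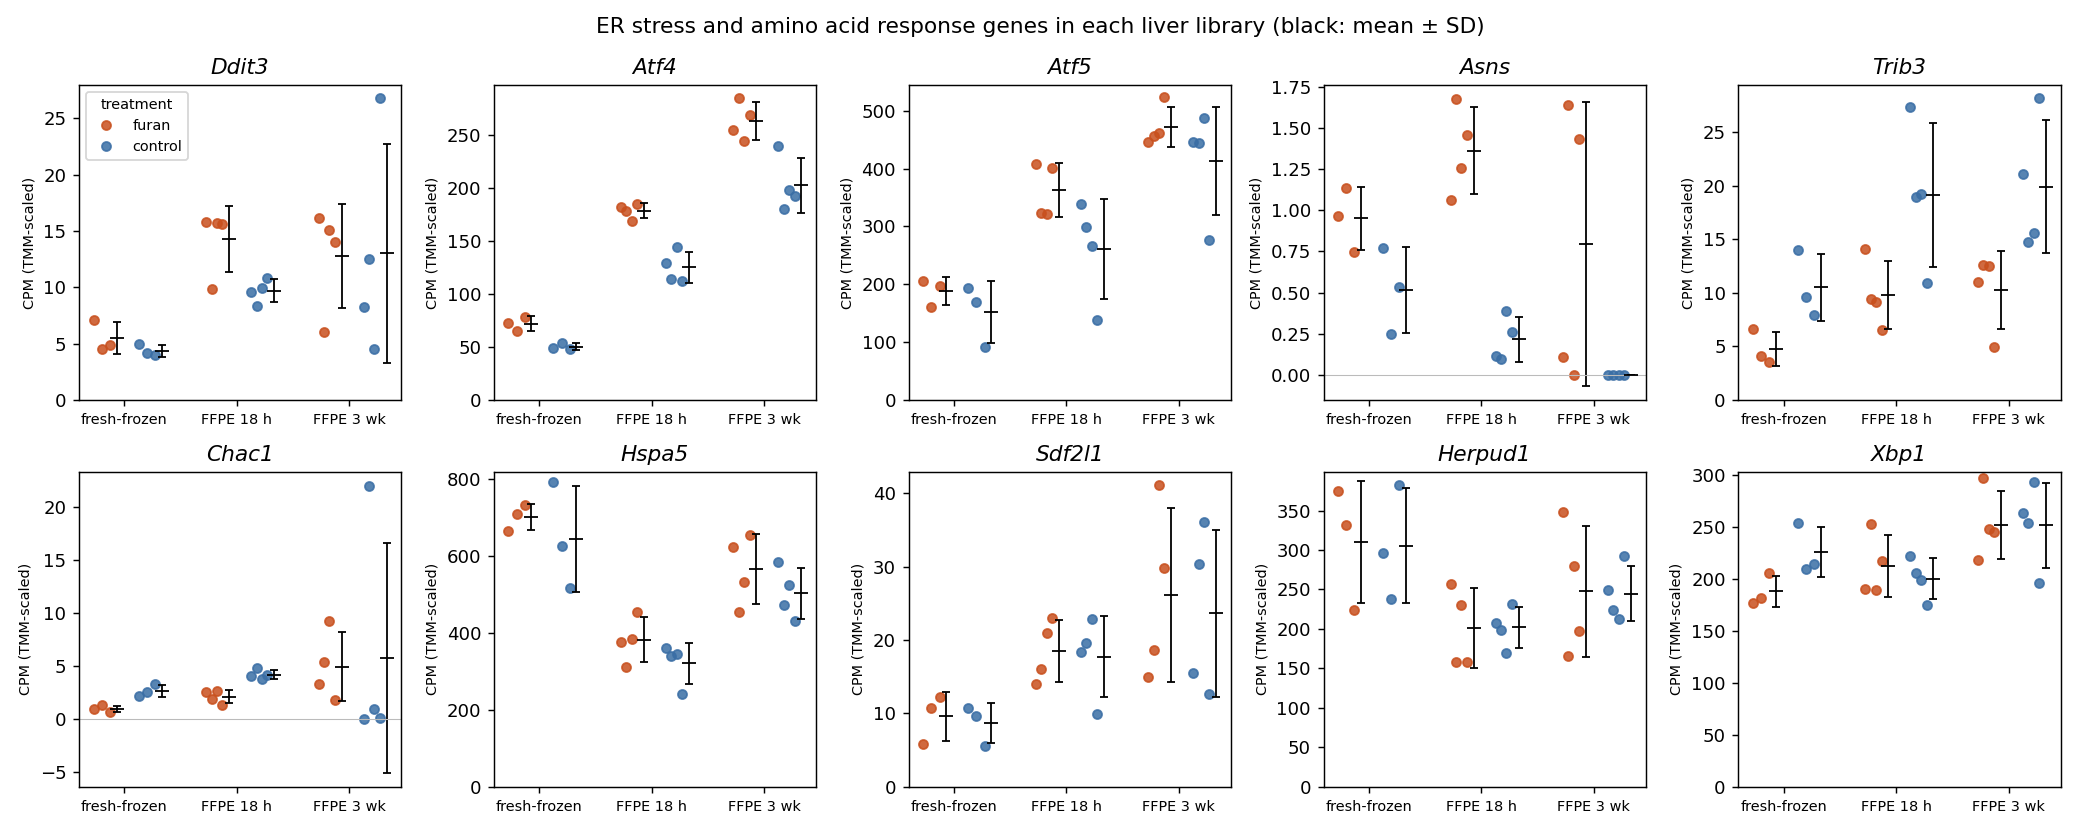
TMM-scaled CPM (vertical axis, separate scale for each gene) of the 10 genes in every library, furan left of control within each kind of piece, with the mean and SD in black (n = 3 each in frozen and 4 each in FFPE pieces). Atf4 separates the treatments in all 3 kinds of piece, Asns in FFPE 18 h pieces and Chac1 in frozen and FFPE 18 h pieces. Trib3 does so in frozen and FFPE 3 wk pieces, and Xbp1 in frozen pieces. For Chac1, 1 control library of FFPE 3 wk pieces stands alone at 22.0 CPM. SD bars that reach below 0 come from such spread, and levels were scaled separately for each kind of piece.

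Asns, which makes asparagine from aspartate, and Chac1, which degrades glutathione, are both textbook ATF4 targets, yet they went opposite ways where they passed the test. Their upstream windows are shown because each holds the core of the C/EBP-ATF response element (CARE), the site through which ATF4 is known to act. The windows are the 250 bases before the RefSeq start on build GRCm38.p6, read along the gene's strand (the minus strand of chr6:7693210-7693459 for Asns, the plus strand of chr2:119350992-119351241 for Chac1), with the match to TGATGNAA on either strand in capitals.
Asns: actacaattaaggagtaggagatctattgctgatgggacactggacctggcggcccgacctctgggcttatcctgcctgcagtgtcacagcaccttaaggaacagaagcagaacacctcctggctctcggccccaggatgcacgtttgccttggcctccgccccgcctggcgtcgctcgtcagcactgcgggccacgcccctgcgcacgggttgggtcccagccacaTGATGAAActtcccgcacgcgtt
Chac1: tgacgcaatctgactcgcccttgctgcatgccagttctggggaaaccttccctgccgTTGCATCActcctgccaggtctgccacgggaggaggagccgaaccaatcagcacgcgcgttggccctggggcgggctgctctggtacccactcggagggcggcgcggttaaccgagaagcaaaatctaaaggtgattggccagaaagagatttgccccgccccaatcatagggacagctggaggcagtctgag
The match lay 23 to 16 bases before the start on the gene's strand in Asns, as TGATGAAA, and 193 to 186 bases before it on the opposite strand in Chac1, as TGATGCAA when read on that strand. Of 32851 RefSeq windows of this length, 3.45% held the CARE core. The windows of Atf4, Ddit3, Atf5 (a pair of starts), Trib3, Sdf2l1 and Xbp1 held neither this core nor the ER stress motifs given with Hspa5, and a match describes letters only.

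Asns had the lowest level per kilobase of the 10 genes in control frozen livers. In frozen livers it had 0.966, 1.14 and 0.749 CPM in furan animals 41, 43 and 44, against 0.772, 0.250 and 0.532 CPM in control animals 02, 04 and 06. The lowest furan library lay just below the highest control library, and the log2 fold change of 0.91 ± 0.37 (SE) had an adjusted p of 0.136 by edgeR's quasi-likelihood test. After fixation for 18 h, it had 1.06, 1.67, 1.26 and 1.46 CPM in furan animals 41 to 44, against 0.112, 0.0985, 0.386 and 0.263 CPM in control animals 02, 03, 04 and 06. All furan libraries lay above all controls, a log2 fold change of 2.66 ± 0.50 (SE; 6.33-fold, 95% interval of the log2 value 1.58 to 3.75; adjusted p = 0.00618, edgeR). These values rest on 106 counts in furan and 14 counts in control libraries. Asns met the filter on low counts there through the furan libraries alone (18 to 31 counts, against 2 to 7 counts in control libraries). Its fold and call in FFPE 18 h livers thus come from a gene kept for its high group, and they are no independent support for a rise. In the FFPE 3 wk livers Asns had 1, 12, 0 and 17 counts in furan animals 41 to 44, against 0 counts in each control library. With counts pooled over each group and 3 counts allowed for the control group, the furan level was 10.4-fold the control level (on library totals without TMM scaling). Of the 30 furan counts, 12 came from animal 42 and 17 from animal 44. That value covers no spread between animals and is no lower bound for the treatment. Asns fell under the filter on low counts, so it was not tested.

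Chac1 fell with furan in frozen and FFPE 18 h livers. In the frozen livers it had 0.897, 1.28 and 0.662 CPM in furan animals, against 2.15, 2.56 and 3.29 CPM in control animals. The groups did not overlap, with a log2 fold change of -1.48 ± 0.26 (SE; adjusted p = 0.0104, edgeR). With 18 h of fixation, it had 2.54, 1.85, 2.64 and 1.31 CPM in furan animals, against 4.07, 4.78, 3.80 and 4.12 CPM in control animals, again without overlap. It fell by 1.00 ± 0.26 on the log2 scale (SE; adjusted p = 0.0330, edgeR). Leaving out any of control animals 02, 03 and 04 or furan animals 42 and 44 put the FFPE 18 h adjusted p above 0.05 (0.0573 to 0.0864). With the other settings counted, this call was lost in 8 of 16 alternatives. In the FFPE 3 wk livers Chac1 had 3.30, 5.33, 9.28 and 1.77 CPM in furan animals, against 0, 22.0, 0.953 and 0.104 CPM in control animals 02, 03, 04 and 06. Control animal 03 was far above the other controls, all 4 furan libraries lay between, and the log2 fold change was -0.25 ± 1.32 (SE; adjusted p = 0.989, edgeR). Without control animal 03 the log2 fold change of Chac1 there was 3.64 (adjusted p = 0.358, edgeR).

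Trib3 encodes a pseudokinase that CHOP and ATF4 induce and that restrains them and insulin signalling. In the frozen livers it had 6.61, 4.14 and 3.54 CPM in furan animals, against 14.0, 9.66 and 7.91 CPM in control animals. The groups did not overlap, with a log2 fold change of -1.12 ± 0.27 (SE; adjusted p = 0.0285, edgeR). The adjusted p was above 0.05 without control animal 02 or 04 or furan animal 43 or 44 (0.0554 to 0.110), and in 6 of all 14 alternatives. With 18 h of fixation, Trib3 had 14.1, 9.45, 9.13 and 6.53 CPM in furan animals 41 to 44, against 27.4, 18.9, 19.2 and 11.0 CPM in control animals 02, 03, 04 and 06. Furan animal 41 overlapped control animal 06, and the log2 fold change was -0.98 ± 0.25 (SE; adjusted p = 0.0310, edgeR). That call was lost without any of control animals 02, 03 and 04 or furan animals 42, 43 and 44 (adjusted p 0.0656 to 0.0951), and in 9 of all 17 alternatives. In FFPE 3 wk livers it had 11.0, 12.6, 12.6 and 4.97 CPM in furan animals, against 21.1, 14.7, 15.6 and 28.1 CPM in control animals. The groups did not overlap there, and the log2 fold change of -0.96 ± 0.43 (SE) had an adjusted p of 0.412 (edgeR).

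Hspa5 and Herpud1 are the readouts of the unfolded protein response in the ER proper. Hspa5 encodes BiP, the ER Hsp70 chaperone, and Herpud1 a membrane protein of the ER-associated degradation complex. Their upstream windows are shown because they hold the ER stress response elements through which ATF6 and XBP1 are known to act. The Hspa5 window (plus strand, chr2:34771840-34772089) holds the ER stress response element (ERSE), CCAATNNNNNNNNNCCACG, and the Herpud1 window (plus strand, chr8:94386179-94386428) holds ERSE-II, ATTGG and CCACG with 1 base between them, and a CARE core; all were searched on both strands, the capitals mark the matches, and build and source are as for Asns.
Hspa5: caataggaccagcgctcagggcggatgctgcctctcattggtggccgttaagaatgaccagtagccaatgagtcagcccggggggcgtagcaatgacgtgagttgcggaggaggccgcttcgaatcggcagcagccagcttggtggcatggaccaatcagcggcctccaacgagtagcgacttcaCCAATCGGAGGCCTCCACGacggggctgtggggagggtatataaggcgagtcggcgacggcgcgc
Herpud1: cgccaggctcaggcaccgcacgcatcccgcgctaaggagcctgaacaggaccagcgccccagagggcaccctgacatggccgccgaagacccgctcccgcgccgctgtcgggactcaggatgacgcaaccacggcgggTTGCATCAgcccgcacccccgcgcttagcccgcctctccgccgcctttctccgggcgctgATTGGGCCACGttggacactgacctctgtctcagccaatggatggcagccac
The ERSE lay 65 to 47 bases before the Hspa5 start and the ERSE-II 52 to 42 bases before the Herpud1 start, both on the gene's strand, and the CARE core of Herpud1 112 to 105 bases before it on the opposite strand, and none of the matches overlapped another. Of the 32851 windows, 0.113% held the ERSE and 0.0304% the ERSE-II. The windows were printed for these 4 of the 10 genes because the other genes' windows held none of the 3 motifs.

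Hspa5 had 665, 711 and 732 CPM in furan animals 41, 43 and 44 of the frozen livers, against 792, 626 and 518 CPM in control animals 02, 04 and 06. The furan libraries lay inside the control range. The log2 fold change was 0.13 ± 0.14 (SE; adjusted p = 0.590, edgeR), with a 95% interval from -0.21 to 0.46. In FFPE 18 h livers Hspa5 had 377, 312, 385 and 455 CPM in furan animals, against 360, 340, 344 and 242 CPM in control animals, a log2 fold change of 0.25 ± 0.13 (SE; adjusted p = 0.270, edgeR; interval -0.03 to 0.53). Control animal 06, the library with most Rn45s, was lowest and furan animal 44 highest. Without animal 06 the log2 fold change of Hspa5 was -0.01 in frozen and 0.14 in FFPE 18 h pieces. In FFPE 3 wk livers Hspa5 ranged from 454 to 656 CPM in furan animals, against 431 to 585 CPM in control animals (0.17 ± 0.14, SE; adjusted p = 0.770, edgeR).

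Herpud1 had 374, 332 and 225 CPM in furan animals of the frozen livers, against 297, 238 and 383 CPM in control animals. The groups spanned almost the same range, and the log2 fold change was 0.03 ± 0.21 (SE; adjusted p = 0.946, edgeR) with a 95% interval from -0.47 to 0.52. In FFPE 18 h livers it had 257, 159, 231 and 158 CPM in furan animals 41 to 44, against 208, 199, 170 and 232 CPM in control animals (-0.01 ± 0.15, SE; adjusted p = 0.985, edgeR; interval -0.34 to 0.32). After fixation for 3 wk, the log2 fold change was 0.01 ± 0.20 (SE; adjusted p = 0.997, edgeR). A change in Herpud1 of 0.60 or more on the log2 scale, such as that of Syvn1 in frozen livers, lies outside each of these 3 intervals.

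Sdf2l1 encodes an ER protein that works with BiP and its co-chaperones. In frozen livers it had 5.87, 10.8 and 12.2 CPM in furan animals, against 10.8, 9.60 and 5.62 CPM in control animals, so each group held a low animal (41 and 06), with a log2 fold change of 0.15 ± 0.31 (SE; adjusted p = 0.777, edgeR). In the FFPE 18 h livers it ranged from 14.0 to 23.1 CPM in furan animals, against 9.99 to 22.9 CPM in control animals (0.05 ± 0.21, SE; adjusted p = 0.912, edgeR). Without control animal 06 the log2 fold change of Sdf2l1 was -0.09 in frozen and -0.13 in FFPE 18 h pieces. After fixation for 3 wk, it ranged from 15.0 to 41.1 CPM in furan animals, against 12.6 to 36.1 CPM in control animals (0.13 ± 0.40, SE; adjusted p = 0.973, edgeR).

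Xbp1 encodes the transcription factor that IRE1 activates by splicing the mRNA, a step that counts per gene do not show. In frozen livers it had 177, 182 and 205 CPM in furan animals, against 254, 209 and 214 CPM in control animals. Every furan library lay below every control library, yet the log2 fold change of -0.26 ± 0.10 (SE) had an adjusted p of 0.112 by edgeR's quasi-likelihood test. After fixation for 18 h, it had 191, 253, 189 and 217 CPM in furan animals, against 222, 206, 199 and 175 CPM in control animals, with overlap and a log2 fold change of 0.08 ± 0.10 (SE; adjusted p = 0.683, edgeR). After fixation for 3 wk, the log2 fold change was 0.00 ± 0.15 (SE; adjusted p = 1.00, edgeR). Xbp1 is also abundant in plasma cells. The B and plasma cell markers other than Xbp1 and Derl3 summed to between 1.87 and 2.06 CPM in furan livers, against between 1.57 and 2.71 CPM in control livers, in frozen pieces, with none of the 5 at 0. In the same pieces 5 of 11 markers of pancreatic acinar cells, another secretory type rich in these genes (Cpa1, Cpb1, Amy2a5, Prss2 and Try4), had 0 counts in every library. The rest were detected. Cela1 averaged 12.1 CPM in furan livers and 15.1 CPM in control livers. Cela2a had 59 counts over these libraries, and Ctrb1, Cel, Cela3b and Pnlip had 1 or 2 counts each.

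For Hspa5, Atf5, Sdf2l1 and Herpud1, some animals stood low or high in all 3 pieces of their liver. Control animal 06 had the lowest Hspa5, Atf5 and Sdf2l1 of all libraries in each kind of piece. Its Atf5 lay 0.65 below the mean of its own group in frozen, 0.84 below it in FFPE 18 h and 0.54 below it in FFPE 3 wk pieces, on the log2(CPM + 0.5) scale. Its Sdf2l1 lay 0.54, 0.74 and 0.75 below in the same order. Furan animal 41 had the second lowest Sdf2l1 in each kind of piece. Herpud1 ran the other way: it was highest or second highest in furan animal 41 and control animal 06 in each kind of piece, and lowest or second lowest in furan animal 44.

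**Figure D3:**
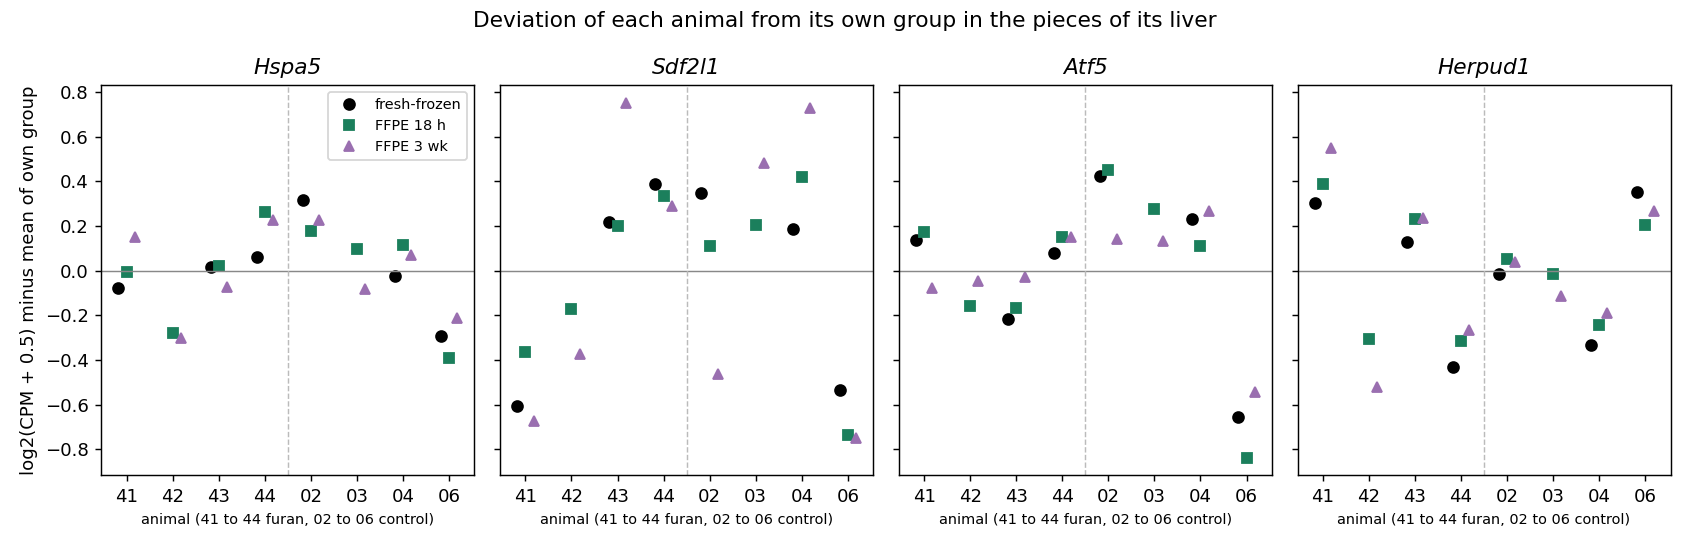
Deviation of each library from the mean of its own treatment group on the log2(CPM + 0.5) scale (vertical axis) for Hspa5, Sdf2l1, Atf5 and Herpud1, by animal (horizontal axis, furan animals left of the dashed line and control animals right), with a symbol for each kind of piece. Control animal 06 lies low for Hspa5, Sdf2l1 and Atf5 and high for Herpud1 in all 3 kinds of piece, and animals 42 and 03 have no frozen library.

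Whether the furan response of these genes differed between kinds of piece was tested with the interaction of treatment and piece. The main fit took pieces of 1 liver as separate libraries. None of the 10 genes passed in FFPE 18 h minus frozen by edgeR's quasi-likelihood test, none of the 9 other than Asns passed in the interactions with FFPE 3 wk (no value is given for Asns there, since all its FFPE 3 wk controls had 0 counts), and 0.00% of all tested genes did. At an unadjusted p below 0.05 there were 455 of 13739 genes for FFPE 18 h minus frozen, 590 of 13156 for FFPE 3 wk minus frozen and 891 of 13282 for FFPE 3 wk minus FFPE 18 h, and DESeq2 called 1, 19 and 67 genes. For Asns the FFPE 18 h response exceeded the frozen response by 1.81 ± 0.66 on the log2 scale (SE; unadjusted p = 0.0149, adjusted p = 1.00, edgeR), and for Xbp1 by 0.36 ± 0.16 (SE; unadjusted p = 0.0382, adjusted p = 1.00). For Atf4 the difference was -0.00 ± 0.13 (SE), with a 95% interval from -0.27 to 0.26. With the animal as a block, the Asns difference was 1.33 (adjusted p = 0.552), still none of the 10 passed, and 2 genes of the whole table did in FFPE 18 h minus frozen.

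The genes around these 10 were examined in 7 lists of the pathway. Amino acid supply genes that ATF4 is known to serve rose in part in frozen livers. Of 13 tested synthesis and one-carbon genes 3 were higher there, where 8.21% of all tested genes were, and 0 lower (median log2 fold change 0.33, against -0.01 over all tested genes). These were Mthfd2, a mitochondrial folate enzyme, at 1.71 ± 0.15 CPM in furan livers and 0.691 ± 0.059 CPM in control livers (SD, n = 3 each; log2 fold change 1.30 ± 0.18, SE), Psat1 of serine synthesis (1.26 ± 0.26) and Pycr1 of proline synthesis (1.23 ± 0.25). After fixation for 18 h, 1 of 12 was higher, where 3.92% of all tested genes were, and the median was 0.29. This was Cth of cysteine synthesis (0.43 ± 0.10, SE; 0.33 ± 0.11 and adjusted p = 0.0818 in frozen livers, edgeR). The frozen count was 1 without furan animal 43 and 5 without control animal 06, and the FFPE 18 h count was 0 without furan animal 41 or 44 and 3 without control animal 06. The frozen count was also 0 with a filter at 5 CPM, after thinning and in the model of all 6 groups. Among 9 tested amino acid transporters 1 was higher in each of frozen and FFPE 18 h livers, where 8.21% and 3.92% of all tested genes were. It was Slc1a4, which carries alanine, serine and cysteine, in both. Its log2 fold change was 1.00 ± 0.12 in frozen livers (SE; 19.1 ± 2.93 CPM in furan livers and 9.56 ± 0.81 CPM in control livers) and 0.91 ± 0.23 in FFPE 18 h livers (SE). The FFPE 18 h call was lost without control animal 04 or furan animal 42, 43 or 44, after thinning and with the animals that also had a frozen library. In the model of all 6 groups Slc1a4 passed in neither. Slc7a5, a carrier of large neutral amino acids, had a log2 fold change of -0.39 ± 0.14 in frozen and -0.47 ± 0.26 in FFPE 18 h livers and passed in neither.

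Cytosolic tRNA synthetases, which charge tRNAs with amino acids, were mostly on the positive side by small amounts. In frozen livers 7 of 16 were higher, where 8.21% of all tested genes were, and 0 lower (median 0.27, with 15 of 16 above 0), led by Gars (0.39 ± 0.06), Vars (0.33 ± 0.06), Iars (0.44 ± 0.09) and Nars (0.36 ± 0.09). With 18 h of fixation, 4 of 16 were higher, where 3.92% of all tested genes were, and 0 lower (median 0.28, all 16 above 0), namely Rars (0.48 ± 0.10), Tars (0.53 ± 0.11), Cars (0.49 ± 0.11) and Gars (0.41 ± 0.09; log2 fold changes with SE). The frozen count was 2 without control animal 04, 4 without control animal 06 and 3 without furan animal 43 or 44. It was 2 after all libraries were thinned to 1 depth and 0 in the model of all 6 groups, and the FFPE 18 h count was 0 in that model and 2 with the animals that also had a frozen library.

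The other targets and partners of ATF4 and CHOP held the largest rises. In frozen livers 8 of 19 were higher, where 8.21% of all tested genes were, and 1 lower (median 0.21). Tnfrsf10b, a death receptor, had 3.02 ± 0.47 CPM in furan livers and 0.298 ± 0.058 CPM in control livers (log2 fold change 3.33 ± 0.23, SE; adjusted p = 0.000376, edgeR). Atf3, a stress transcription factor, had 8.40 ± 3.44 CPM in furan livers and 0.998 ± 0.246 CPM in control livers (3.08 ± 0.32). Gdf15, a stress hormone, had 12.6 ± 5.32 CPM in furan livers and 1.99 ± 0.62 CPM in control livers (2.67 ± 0.35), and Sesn2, which restrains mTORC1, had 28.4 ± 2.33 CPM in furan livers and 9.97 ± 1.36 CPM in control livers (1.52 ± 0.11). Several of this list, among them Tnfrsf10b, Gdf15, Sesn2, Atf3 and Ddit4, are also known targets of p53, so the list does not stand for ATF4 alone. With 18 h of fixation, 7 of 19 were higher, where 3.92% of all tested genes were, and 0 lower (median 0.31), with Gdf15 at 2.48 ± 0.23, Tnfrsf10b at 2.87 ± 0.51, Atf3 at 1.98 ± 0.37 and Trib1, a relative of Trib3, at 0.44 ± 0.09 (log2 fold changes with SE). In the model of all 6 groups the count of this list was 1 in frozen and 1 in FFPE 18 h livers. Trib1 was also higher in frozen livers (0.55 ± 0.09), where Trib3 was lower. Cebpg, a dimer partner of ATF4, was the 1 gene lower in frozen livers (-0.28 ± 0.06, SE), and Fgf21, a liver hormone, was higher in frozen (1.91 ± 0.41) and FFPE 18 h livers (1.64 ± 0.34); both were named after their values were seen. In the FFPE 3 wk livers Gdf15 was the 1 gene of the 7 lists that passed (2.61 ± 0.55, SE; adjusted p = 0.0405, edgeR). The count for this list was 0 without control animal 02 or 03 and without any 1 of the furan animals. It was also 0 by DESeq2, which gave an adjusted p for only 7 of the 19 genes.

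On the ER side of the pathway the genes that passed were mostly in degradation and transport. Of 20 ER chaperones and folding enzymes, 0 were higher and 1 lower in frozen livers (median -0.05), where 8.21% and 7.47% of all tested genes were. The lower gene was Sil1, a nucleotide exchange factor for BiP (-0.31 ± 0.06, SE; adjusted p = 0.0170, edgeR). At an unadjusted p below 0.05 in frozen livers, 2 of the 20 had a positive and 3 a negative fold change, where 32.0% of all tested genes passed in either direction. DESeq2 also called 0 higher there, and 1 was called higher without control animal 02. In FFPE 18 h livers 0 of 20 passed in either direction (median 0.07) by edgeR, where 8.39% of all tested genes did. An unadjusted p below 0.05 was seen for 6 of them, where 23.4% of all tested genes had one. DESeq2 called 3 higher, and 1 was called higher by edgeR without control animal 02. P4hb, a disulfide isomerase, had the smallest p of the list at 0.21 ± 0.07 (SE; adjusted p = 0.0745). Of 23 genes of ER-associated degradation and secretory transport, 7 were higher and 1 lower in frozen livers (median 0.08), where 8.21% and 7.47% of all tested genes were. The higher genes were led by Syvn1, the ubiquitin ligase of that pathway (133 ± 10.9 CPM in furan livers and 88.3 ± 10.7 CPM in control livers, log2 fold change 0.60 ± 0.10, SE), Sec61a1 of the translocon (0.31 ± 0.07), Edem2 (0.25 ± 0.06) and Ssr1 (0.30 ± 0.07). The gene that was lower, Os9, a lectin of the same pathway (-0.26 ± 0.06), was named after its value was seen. In the FFPE 18 h livers 4 of 23 were higher, where 3.92% of all tested genes were, and 0 lower (median 0.20), namely Syvn1 (0.42 ± 0.08), Edem1 (0.31 ± 0.07), Ubxn4 (0.40 ± 0.10) and Ssr1 (0.33 ± 0.09). That count was 1 without furan animal 44 and 2 without control animal 03 or 04 or furan animal 41 or 43. The frozen count of 7 was 1 without any of control animals 04 and 06 or furan animals 43 and 44, and 3 without furan animal 41. After thinning these counts were 3 in frozen and 2 in FFPE 18 h livers, in the model of all 6 groups 0 in both, and with the animals that also had a frozen library 2 in FFPE 18 h livers. Of 21 stress sensors and eIF2 control genes 2 were higher and 0 lower in each of frozen livers (median 0.11; Eif2b5 at 0.22 ± 0.06 and Eif2b4 at 0.30 ± 0.09) and FFPE 18 h livers (median 0.05; Eif2s1 at 0.42 ± 0.10 and Eif2b4 at 0.41 ± 0.11), where 8.21% and 3.92% of all tested genes were higher. Their frozen count was 0 without control animal 04 or 06 or furan animal 43, and 1 without control animal 02 or furan animal 41 or 44. Their FFPE 18 h count was 0 without control animal 02, 03 or 04 or furan animal 43, and 1 without furan animal 41, 42 or 44. Both counts were 0 after thinning and in the model of all 6 groups, the frozen count was 0 with no filter on low counts, and the FFPE 18 h count was 0 with the animals that also had a frozen library.

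**Figure D4:**
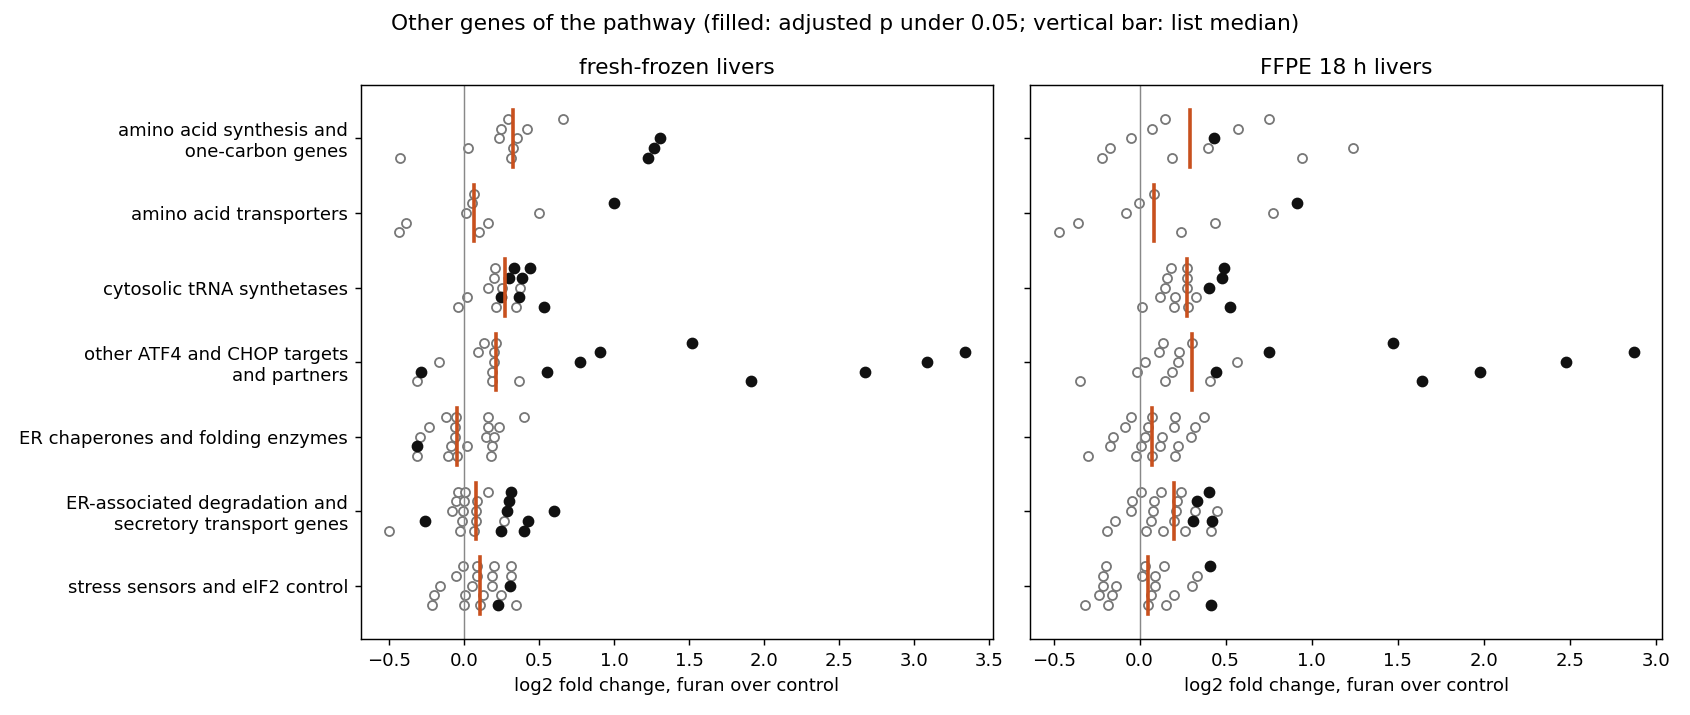
Log2 fold change, furan over control (horizontal axis), of the tested genes of the 7 lists in frozen livers (left) and FFPE 18 h livers (right), each point a gene, filled where the adjusted p was below 0.05 by edgeR's quasi-likelihood test, with the list median as a coloured bar. The points farthest right are other targets of ATF4 and CHOP, and the ER chaperone medians lie at -0.05 in frozen and 0.07 in FFPE 18 h livers.

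Over the frozen and FFPE 18 h libraries together, after the mean of each kind of piece was taken off, the genes whose pattern was most like Atf4 were Tubb2a (Pearson r = 0.970), Tuba4a (0.967) and Thoc5 (0.966), over 14 libraries and among 9411 genes of at least 5 CPM. Those most like Trib3 were Cyp27a1 (0.967), Cyp4a32 (0.954) and Enpp3 (0.953). For Asns they were Ncaph2 (0.942), Tlk2 (0.936) and Vhl (0.932), and for Ddit3 they were Tatdn2 (0.876), Rabepk (0.875) and Surf4 (0.867). These values describe 14 libraries from 8 animals in which the treatment itself sets the groups apart, and libraries of 1 animal are not independent.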

How the data were processed

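Whole-liver poly(A) libraries were made with an unstranded TruSeq kit, per the labels' protocols, from about 100 mg of frozen tissue (RNA integrity above 8.9) or from FFPE sections of 10 micrometres, 1 section for 18 h and 2 sections for 3 wk (RNA integrity 1.3 to 2.4). Preservation therefore cannot be told apart from section number, RNA integrity or other handling that went with the kind of piece. CASAVA 1.8.2, STAR 2.3.0, featureCounts 1.4.4 and build mm9 are named in the submitters' processing notes. How reads mapping to several genes were counted is not given in the sources used here. The deposited values are raw whole-number counts per gene by the authors. Of 24 columns, 22 matched a labelled sample, and 2 frozen columns with animal numbers that no label gives were not used.

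Counts were fitted with edgeR 4.0.16 in R 4.3.3 (filterByExpr, TMM, quasi-likelihood F test, Benjamini-Hochberg over all tested genes, threshold 0.05), separately for each kind of piece, with interaction fits for the differences. SE is the log2 fold change divided by the root of F. Summed markers were compared by two-sided exact permutation, adjusted over 30 tests; 3 against 3 libraries cannot go below p = 0.1, nor 4 against 4 below 0.0286. p-values and the intervals of fold changes measure the spread between animals, and the allowance of 3 counts for Asns covers counting error only.

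Pieces of 1 liver are paired by animal: after group means were removed, frozen and FFPE 18 h pieces of an animal had r from 0.408 to 0.516 across genes, frozen and FFPE 3 wk pieces 0.0894 to 0.272, and the FFPE pieces 0.0154 to 0.290. No libraries were duplicates (lowest chi-square per degree of freedom 9.36).

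Sequences are RefSeq windows of GRCm38.p6, and all 10 genes matched. Exon lengths came from GENCODE on GRCm38, so no coordinates of the files' build are given. From each list up to 4 genes with the smallest p in frozen and in FFPE 18 h pieces, and 2 in FFPE 3 wk pieces, were open to naming. The genes most like Chac1 in pattern are not reported here. The 10 genes, lists, markers, motifs and tests were chosen with earlier results of these data known.

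Alternatives were DESeq2 1.42.0, RLE scaling, no filter, a filter at 5 CPM, robust dispersions, 1 model of all 6 groups, Rn45s left out, counts thinned to 3666173 per library, frozen-matched animals, the animal block and each library left out.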

Additional observations from a re-analysis of the deposited data

Results flagged for a closer look

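Of 39 groups of 4 libraries examined, 1 for each gene, treatment and FFPE time with counts above 0, 3 held a library far from the other 3. The limit used would pick out about 1 in 20 groups of independent normal values. These groups share libraries and some values lie near 0, so the rate by chance is not known here. Chac1 was at 22.0 CPM in control animal 03 of the FFPE 3 wk livers, against 0 to 0.953 CPM in the other controls. Ddit3 was at 9.87 CPM in furan animal 42 of the FFPE 18 h livers, against 15.6 to 15.8 CPM in the other furan animals. Hspa5 was at 242 CPM in control animal 06 of the FFPE 18 h livers, against 340 to 360 CPM in the other controls. Rn45s took 37.3% of the counts of that library, against 6.42% to 7.22% in the other controls. Animal 06 also had the lowest Hspa5 in frozen and FFPE 3 wk pieces, where Rn45s took 0.182% and 7.23% of its counts. The cause of these values was not tested.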

How the results depend on the processing

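Of the 8 called results among the 10 genes, none changed direction in 122 alternative fits, and 35 of these fits put them above the threshold. Atf4 in FFPE 3 wk livers passed in 1 model of all 6 groups (adjusted p = 0.0180, edgeR), and over its 18 alternatives the adjusted p ran from 0.0180 to 0.647. The genes called among the 10 numbered 3 in frozen livers, 1 in the model of 6 groups and 2 to 3 with a library left out. Robust dispersions, the filter at 5 CPM and thinning each gave 2 in frozen livers. For FFPE 18 h livers they numbered 5, against 3 with the filter at 5 CPM (which leaves out Asns and Chac1), 1 in the model of 6 groups, 2 after thinning, 3 with frozen-matched animals, and 2 to 5 with a library left out. RLE scaling, robust dispersions and leaving out Rn45s each gave 4 in FFPE 18 h livers. In FFPE 3 wk livers they numbered 0, and 2 (Atf4 and Asns) in the model of 6 groups.

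Over all genes, 2162 were called in frozen livers, 138 in the model of 6 groups, 806 after thinning and 864 to 1620 with a library left out. In FFPE 18 h livers 1077 were called, 225 in the model of 6 groups, 594 with frozen-matched animals and 633 to 1285 with a library left out. In FFPE 3 wk livers 99 were called, against 353 by DESeq2, 194 with no filter, 2030 in the model of 6 groups, 19 with frozen-matched animals, 12 without the 2 shallowest libraries (chosen after seeing the data) and 17 to 173 with a library left out. Higher genes made up 36.4% of the FFPE 3 wk calls, against 27.5% by DESeq2, 51.1% in the model of 6 groups, 68.4% with frozen-matched animals, 75.0% without the 2 shallowest libraries and 29.3% to 64.7% with a library left out. In the model of 6 groups they made up 40.6% of the frozen calls, against 52.4%.

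The interactions called 0 genes. For FFPE 18 h minus frozen DESeq2 called 1, the animal as a replicate block gave 2, and the block with robust dispersions (chosen after seeing the data) gave 17. For FFPE 3 wk minus frozen DESeq2 called 19 and the model of 6 groups 19, with 0 to 5 when a library was left out. For FFPE 3 wk minus FFPE 18 h they called 67 and 54, with 0 to 37. The block changed no call of the 10 genes. The causes of these shifts were not tested. Few counts stand behind Asns, with 14 over the control libraries of 18 h and 0 over those of 3 wk.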

Other observations

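Markers of other liver cells were summed as a description of the same libraries. In frozen livers Kupffer cell and macrophage markers summed to between 281 and 351 CPM in furan animals, against between 259 and 711 CPM in control animals, stellate cell markers to between 328 and 354 CPM in furan animals, against between 318 and 331 CPM in control animals, and cholangiocyte markers to between 37.3 and 42.2 CPM in furan animals, against between 37.6 and 43.7 CPM in control animals. T and NK cell markers summed to between 1.41 and 1.52 CPM in furan animals, against between 1.34 and 2.52 CPM in control animals, in frozen livers, and to between 6.58 and 6.98 CPM in furan animals, against between 5.32 and 6.56 CPM in control animals, in FFPE 18 h livers. Pancreatic acinar markers summed to between 10.5 and 14.3 CPM in furan animals, against between 13.4 and 18.4 CPM in control animals, in frozen livers, and Cela1 gave most of this sum. Skeletal muscle markers reached 680 CPM in a furan library and 409 CPM in a control library of the FFPE 3 wk livers, where the lowest libraries had 1.81 CPM in furan and 0.191 CPM in control animals.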
